A study of Mus musculus with 9 samples.

Results

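The mRNAs of 7 genes, widely cited as direct targets of miR-155 or miR-146a, were examined in cultured mouse blood progenitors with an induced deletion of Drosha or Dicer1. They were 5 miR-155 targets (Inpp5d, Bach1, Cebpb, Jarid2 and Tab2) and 2 miR-146a targets (Traf6 and Irak1), chosen by gene name among 23023 genes or regions tested. The array carried 10 probes for the 7 genes, 3 of them for Irak1 and 2 for Traf6, and all 10 lay well above background on all 9 arrays. Each gene is described by its probe with the highest mean. The question was whether mRNAs that microRNAs are known to restrain stood higher once a microRNA-processing enzyme was deleted. The array had no probe named for the host transcripts of miR-155 or miR-146a, and the mature strands were not measured. Whether these microRNAs were present in the cultures, or lost after deletion, is therefore not known here.

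The cells were LSK cells, lineage-negative, Sca1- and cKit-positive bone marrow in which blood stem cells and their first progeny are found, taken from female mice. The study compared 3 groups of 3 samples each: Drosha fl/fl cells (called Drosha-deleted), Dicer fl/fl cells (Dicer-deleted) and control cells. All 3 groups, controls included, carried Gt(ROSA)26Sor CreERT2, a Cre recombinase expressed from the ubiquitous Rosa26 locus that 4OH-tamoxifen switches on, and all were cultured for 72 h with 250 nM 4OH-tamoxifen, 10 ng/mL of IL-3, 10 ng/mL of IL-6, 50 ng/mL of SCF and 10% FCS. Recombination was thus induced in culture, and the labels used here give neither its extent nor the animals' ages. The labels do not tell whether the 3 samples of a group are 3 animals. The p-values below therefore set differences between groups only against the variation among these samples, which may be technical.

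Drosha cuts the primary transcript of a microRNA in the nucleus, and Dicer, the product of Dicer1, cuts the resulting hairpin in the cytoplasm into the mature strand. The mature strand guides Argonaute to mRNAs that pair with its seed, bases 2 to 8, which lowers their translation and often their mRNA level. In blood cells miR-155 is known for promoting inflammatory and myeloid responses, and miR-146a for restraining Toll-like and interleukin-1 receptor signalling through Traf6 and Irak1.

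The mature strands are shown because their seeds define the target sites, with the seed in capitals, from RefSeq (GRCm38.p6).
mmu-miR-155-5p: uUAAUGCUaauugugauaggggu
mmu-miR-146a-5p: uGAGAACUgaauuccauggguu
mmu-miR-146b-5p: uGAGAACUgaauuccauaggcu
The miR-155 seed occurred in 1 mature mouse strand of that table, and miR-146b shares its seed with miR-146a, so a site for one is a site for the other.

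The 60-base probes were searched on the transcript strand for AGCATTA, the letters that pair with the miR-155 seed, and for AGTTCTC, those that pair with the miR-146 seed. Only the Cebpb probe, of the 10, held a match to its own microRNA. The match ran over 8 bases (AGCATTAA, in capitals) and is shown within 30 bases of the probe on the plus strand of mm9, chr2:167515855-167515884.
Cebpb site: tttccgtttcgAGCATTAAagtgaagacat
Among all genes tested, 0.321% had a probe with AGCATTA and 0.508% a probe with AGTTCTC. A match is a description of these letters and says nothing of binding, and the part of the Cebpb transcript that the probe covers is not annotated in the sources used here.

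The label check used Drosha and Dicer1 themselves. The authors' log2 value of Drosha ran between 8.81 and 9.32 in Drosha-deleted cells, between 11.94 and 12.16 in Dicer-deleted cells and between 11.85 and 12.04 in control cells, and its fall against control passed the test (difference -2.91, limma adjusted p = 0.000152). Dicer1 ran between 8.97 and 9.18 in Dicer-deleted cells, below the 9.92 to 10.5 of control cells, but this difference of -1.24 did not pass (adjusted p = 0.118). Whether these probes lie within the deleted exons is not stated in the sources used here. Of the control columns, those of replicates 2 and 3 stood apart from the rest. Deviations from the probe means correlated at 0.768 between control replicates 2 and 3 and at -0.584 to -0.286 between either of them and each deletion sample, while control replicate 1 correlated at -0.356 and -0.311 with its fellow controls. The scanner file of control replicate 2 had 18.9% of spots marked non-uniform and a rank correlation of 0.685 with the authors' own column for that sample, and control replicate 3 was the sole array on a second slide. Each difference from control is therefore also given with control replicate 1 as the only control, a choice made after the data were seen, in which that lone sample is assumed to vary like the other groups; differences under this and other alternatives are less the median of all genes. On the authors' values, 39 genes passed an adjusted p of 0.05 between Drosha-deleted and control cells, 4 between Dicer-deleted and control cells and 13 between the deletions.

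None of the 7 targets passed the test in either deletion. In limma's fit across all genes, 0 of 7 passed between Drosha-deleted and control cells, where 0.169% of all genes did, and 0 of 7 between Dicer-deleted and control cells, where 0.0174% did. At an unadjusted p under 0.05 the counts were 0 of 7 in Drosha-deleted cells, against 26.9% of all genes, and 1 of 7 (Jarid2, lower) in Dicer-deleted cells, against 21.9%. On the probes used, 2 targets had a positive difference from control in each deletion (Inpp5d and Tab2) and 5 a negative one. The median difference of the 7 was -0.18 log2 units in Drosha-deleted cells and -0.11 in Dicer-deleted cells, and the median of all genes was 0 in both. With all probes of a gene averaged, Irak1 was positive too. In that setting 3 targets lay above the median of all genes and 4 below it in each deletion. The 2 comparisons share the same control samples. With the slide as a block, which leaves out control replicate 3, the differences from control ran between -0.30 (Cebpb) and 0.19 (Tab2) in Drosha-deleted cells and between -0.71 (Jarid2) and 0.18 (Inpp5d) in Dicer-deleted cells, and 0 of 7 passed. For the 6 targets other than Jarid2, the intervals given below for the differences from control all held 0, although they leave room for differences. Bach1 in Dicer-deleted cells and Cebpb in Drosha-deleted cells nonetheless had every sample below every control sample. For the mean of both deletions against control, 0 of 7 passed where 0.13% of all genes did, and 1 of 7 (Jarid2) had an unadjusted p under 0.05 where 30.2% did. Over the 19 alternative settings tried for each difference from control, and the 18 for the mean of both deletions, a target passed only without control replicate 1, as given below for Inpp5d and Jarid2.

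**Figure D1:**
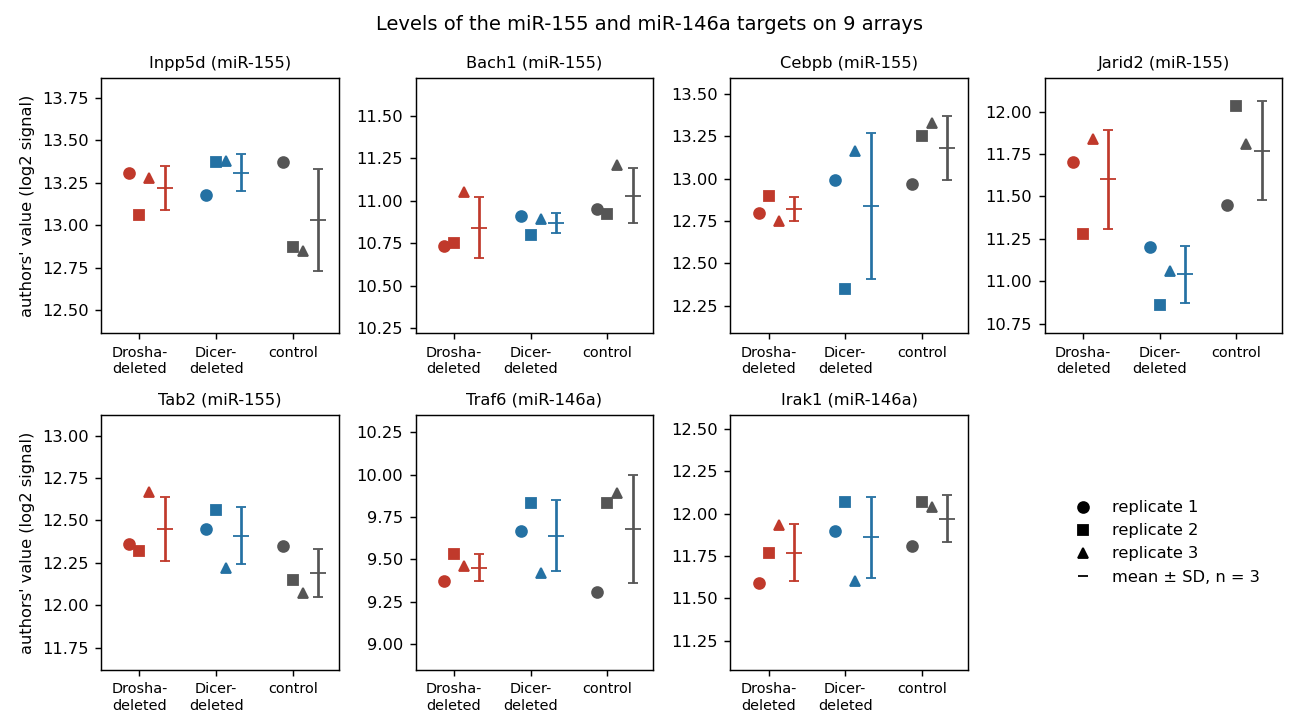
Authors' log2 value (vertical axis, the same 1.5-unit span in every panel) of each target in Drosha-deleted, Dicer-deleted and control samples; symbols mark the replicates, and bars give the mean and SD of 3 samples. Jarid2 in Dicer-deleted cells lies between 10.86 and 11.20, below every control sample, and control replicate 1 lies within the range of the deletion samples for all targets except Traf6.

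Jarid2, a DNA-binding accessory subunit of Polycomb repressive complex 2 (PRC2), differed most between groups. Its authors' log2 values were 11.70, 11.28 and 11.84 in Drosha-deleted cells, 11.20, 10.86 and 11.06 in Dicer-deleted cells and 11.45, 12.03 and 11.81 in control cells. The 3 Dicer-deleted samples were thus below all other samples, and the Drosha-deleted and control samples overlapped. Of all genes, 21.6% had Dicer-deleted and control samples that did not overlap, in one direction or the other. The means were 11.60 ± 0.29, 11.04 ± 0.17 and 11.77 ± 0.29 for Drosha-deleted, Dicer-deleted and control cells (SD, n = 3 each), so Dicer-deleted cells came lowest, and the upper neighbours in that order did not differ beyond their spread. The difference of Dicer-deleted from control cells was -0.73 log2 units (95% interval -1.17 to -0.28, limma adjusted p = 0.153). The exact two-sided permutation test over these 6 samples gave p = 0.1, the smallest it can give with 3 against 3. With control replicate 1 as the only control it was -0.43, and without control replicate 1 it was -0.87 with an adjusted p of 0.0107, in a fit that called 30.5% of all genes; over the 19 alternatives the adjusted p ran between 0.0107 and 1. Drosha-deleted cells differed from control cells by -0.16 (95% interval -0.61 to 0.28), and by 0.15 with control replicate 1 alone. Markers of 2 other cell types were also low in Dicer-deleted cells. The 9 erythroid and megakaryocytic markers measured had a median difference from control of -0.49 (6 lower at an unadjusted p under 0.05), and their mean log2 value ran between 12.60 and 12.78 in Drosha-deleted, 12.20 and 12.52 in Dicer-deleted and 12.56 and 12.86 in control samples. The 7 dendritic markers measured had a median difference of -0.65 (4 lower at an unadjusted p under 0.05), and their mean ran between 10.98 and 11.52 in Drosha-deleted, 10.37 and 11.19 in Dicer-deleted and 11.14 and 11.35 in control samples. At that unadjusted threshold 21.9% of all genes differed between Dicer-deleted and control cells, in either direction. None of these markers passed after adjustment, and their part in the level of Jarid2 was not tested. The Jarid2 probe lies at chr13:45016247-45016306 (mm9, plus strand).

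Drosha-deleted cells were set directly against Dicer-deleted cells, a comparison that rests on none of the control columns except through the shared spread. Jarid2 was higher in Drosha-deleted than in Dicer-deleted cells by 0.56 log2 units (95% interval 0.12 to 1.01), with an unadjusted limma p of 0.0188 and an adjusted p of 0.731. No target passed here: 0 of 7, against 0.0565% of all genes, and 1 of 7 (Jarid2) at an unadjusted p under 0.05, against 5.66%. Jarid2 was also the one target whose Drosha-deleted and Dicer-deleted samples did not overlap, which 15.4% of all genes did. The other 6 targets differed between the deletions by -0.19 (Traf6) to 0.04 (Tab2), and their 95% intervals all held 0, the widest reach being -0.59 for Traf6.

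Inpp5d encodes SHIP1, the inositol phosphatase that limits PI3K signalling in blood cells. Its values were 13.31, 13.06 and 13.28 in Drosha-deleted cells, 13.18, 13.37 and 13.38 in Dicer-deleted cells and 13.37, 12.87 and 12.85 in control cells. Control replicates 2 and 3 lay below all 6 deletion samples, and control replicate 1 lay just under the highest of these. The difference from control was 0.19 (95% interval -0.18 to 0.56, limma adjusted p = 0.472) in Drosha-deleted cells and 0.28 (95% interval -0.09 to 0.65, adjusted p = 0.323) in Dicer-deleted cells. Its direction rested on the control columns: with control replicate 1 alone the differences were -0.16 and -0.08 in the same order of deletions. Without control replicate 1, the difference in Dicer-deleted cells was 0.46 and passed (adjusted p = 0.0248, over a range of 0.0248 to 1 in the alternatives). In that setting the mean of both deletions also passed for Inpp5d (0.42, adjusted p = 0.0203) and Jarid2 (-0.59, adjusted p = 0.0246), where 37.4% of all genes were called. The probe lies at chr1:89616958-89617017 (mm9, plus strand).

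Cebpb, a bZIP transcription factor of myeloid differentiation and emergency granulopoiesis, carries the seed match shown above. Its values were 12.80, 12.90 and 12.75 in Drosha-deleted cells, 12.99, 12.35 and 13.16 in Dicer-deleted cells and 12.97, 13.25 and 13.33 in control cells. All Drosha-deleted samples lay below all control samples, which 23.2% of all genes did in one direction or the other. Of the Dicer-deleted samples, that at 12.35 lay below all control samples, and those at 12.99 and 13.16 lay within the control range. The difference from control was -0.37 (95% interval -0.83 to 0.10, limma adjusted p = 0.274) in Drosha-deleted cells and -0.35 (95% interval -0.81 to 0.12, adjusted p = 0.332) in Dicer-deleted cells. With control replicate 1 alone the differences were -0.16 and -0.15, and the sign was negative in all 19 alternatives of each. The 74 genes whose probe held AGCATTA had a median difference from control of -0.11 with Drosha deleted and -0.06 with Dicer deleted, and 0 of them passed. At an unadjusted p under 0.05, Drosha-deleted cells had 10 of the 74 higher and 8 lower than control cells, against 26.9% of all genes in either direction, and Dicer-deleted cells had 7 higher and 5 lower, against 21.9%.

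Bach1, a haem-sensitive repressor of antioxidant genes such as Hmox1, had values of 10.73, 10.75 and 11.05 in Drosha-deleted cells, 10.91, 10.80 and 10.89 in Dicer-deleted cells and 10.95, 10.92 and 11.21 in control cells. Every Dicer-deleted sample lay below every control sample, by 0.01 at the closest, and Bach1 and Jarid2 were the 2 of 7 targets that did not overlap there, as did 21.6% of all genes. The difference from control was -0.18 (95% interval -0.49 to 0.12) in Drosha-deleted cells and -0.16 (95% interval -0.46 to 0.15) in Dicer-deleted cells. With control replicate 1 alone these were -0.11 and -0.09. The probe lies at chr16:87733532-87733591 (mm9, plus strand).

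Tab2 is the adaptor that ties ubiquitin chains made by Traf6 to the kinase TAK1 (Map3k7). Its values were 12.36, 12.32 and 12.67 in Drosha-deleted cells, 12.45, 12.56 and 12.22 in Dicer-deleted cells and 12.35, 12.15 and 12.07 in control cells. Control replicates 2 and 3 again lay below all deletion samples, and control replicate 1 among them. The difference from control was 0.26 (95% interval -0.07 to 0.60, limma adjusted p = 0.278) in Drosha-deleted cells and 0.22 (95% interval -0.12 to 0.55, adjusted p = 0.39) in Dicer-deleted cells, and 0.10 and 0.04 with control replicate 1 alone. The probe lies at chr10:7626005-7626064 (mm9, minus strand).

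**Figure D2:**
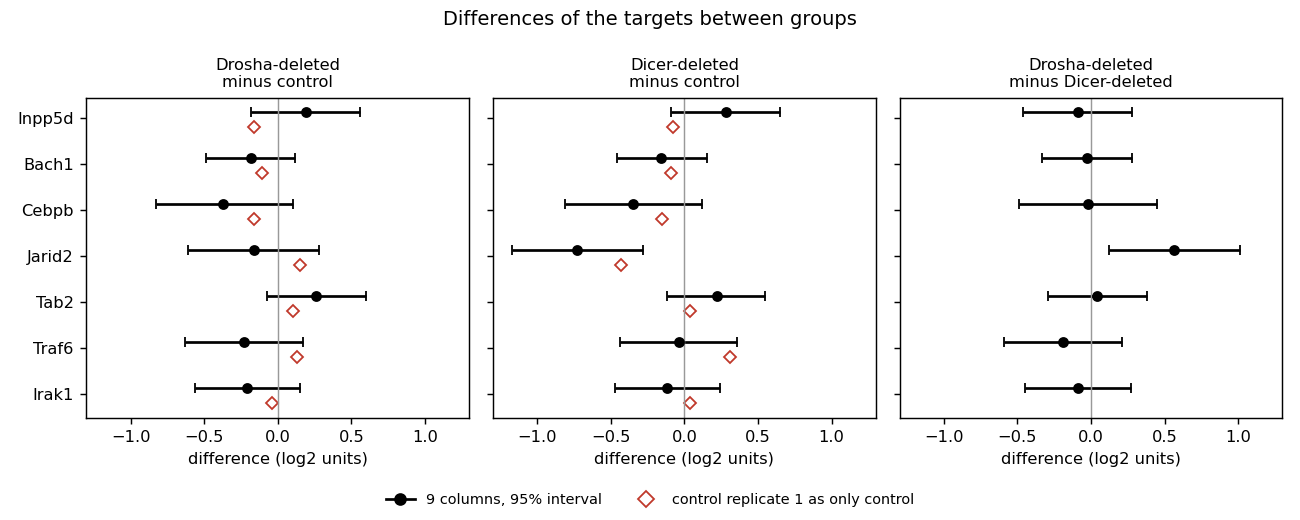
Differences in log2 units (horizontal axis) for each target in 3 comparisons; filled points with bars are limma estimates from all 9 columns with their 95% intervals, and open diamonds use control replicate 1 as the only control. Only Jarid2 has intervals that exclude 0, in Dicer-deleted against control and in Drosha-deleted against Dicer-deleted cells, and the open diamonds lie on the other side of 0 from the filled points for Inpp5d and Traf6 in both deletions, Jarid2 in Drosha-deleted cells and Irak1 in Dicer-deleted cells.

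Traf6, the ubiquitin ligase of the Toll-like and interleukin-1 receptor pathway, had values of 9.37, 9.53 and 9.46 in Drosha-deleted cells, 9.67, 9.83 and 9.42 in Dicer-deleted cells and 9.31, 9.83 and 9.89 in control cells. The control samples held both the lowest and the highest of the 9 values, so that all groups overlapped. The difference from control was -0.23 (95% interval -0.63 to 0.17, limma adjusted p = 0.421) in Drosha-deleted cells and -0.04 (95% interval -0.44 to 0.36, adjusted p = 0.913) in Dicer-deleted cells, against 0.13 and 0.31 with control replicate 1 alone. This probe lies at chr2:101540660-101540719 (mm9, plus strand). A second Traf6 probe, at chr2:101519206-101519265, read 8.92, 8.90 and 9.26 in Drosha-deleted cells, 8.85, 8.95 and 8.91 in Dicer-deleted cells and 8.94, 9.58 and 9.72 in control cells. On it control replicates 2 and 3 were the highest samples and control replicate 1 lay within the deletion samples.

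Irak1, the kinase that activates Traf6, gave a direction that depended on the probe. Its brightest probe (chrX:71259533-71259592, mm9, minus strand) read 11.59, 11.77 and 11.93 in Drosha-deleted cells, 11.90, 12.07 and 11.60 in Dicer-deleted cells and 11.81, 12.07 and 12.04 in control cells. All groups overlapped, and the difference from control was -0.21 (95% interval -0.56 to 0.15, limma adjusted p = 0.409) in Drosha-deleted cells and -0.12 (95% interval -0.47 to 0.24, adjusted p = 0.673) in Dicer-deleted cells. With control replicate 1 alone these were -0.04 and 0.04.

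The second Irak1 probe (chrX:71260779-71260838) read 11.58, 11.76 and 11.55 in Drosha-deleted cells, 11.99, 11.93 and 11.63 in Dicer-deleted cells and 11.69, 11.03 and 11.07 in control cells. The last (chrX:71262475-71262534) read 10.79, 11.05 and 10.49 in Drosha-deleted cells, 11.19, 11.10 and 10.95 in Dicer-deleted cells and 10.91, 10.34 and 10.34 in control cells. On both, control replicates 2 and 3 were the lowest samples, whereas on the brightest probe they were among the highest, and control replicate 1 lay among the deletion samples on all 3 probes. The differences from control were 0.36 and 0.25 in Drosha-deleted cells and 0.58 and 0.55 in Dicer-deleted cells on these 2 probes. Averaging all 3 probes gave 0.14 with Drosha deleted and 0.34 with Dicer deleted, with limma adjusted p of 0.551 and 0.217. The difference with Dicer deleted had an unadjusted p under 0.05, as did 21.9% of all genes on the probes used. On the array, then, Irak1 had no single direction against control. Its last probe lay above every control sample in Dicer-deleted cells, at 10.95 against 10.91 at the closest. Of all genes, 21.6% did not overlap between Dicer-deleted and control cells, by the probe used for each.

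**Figure D3:**
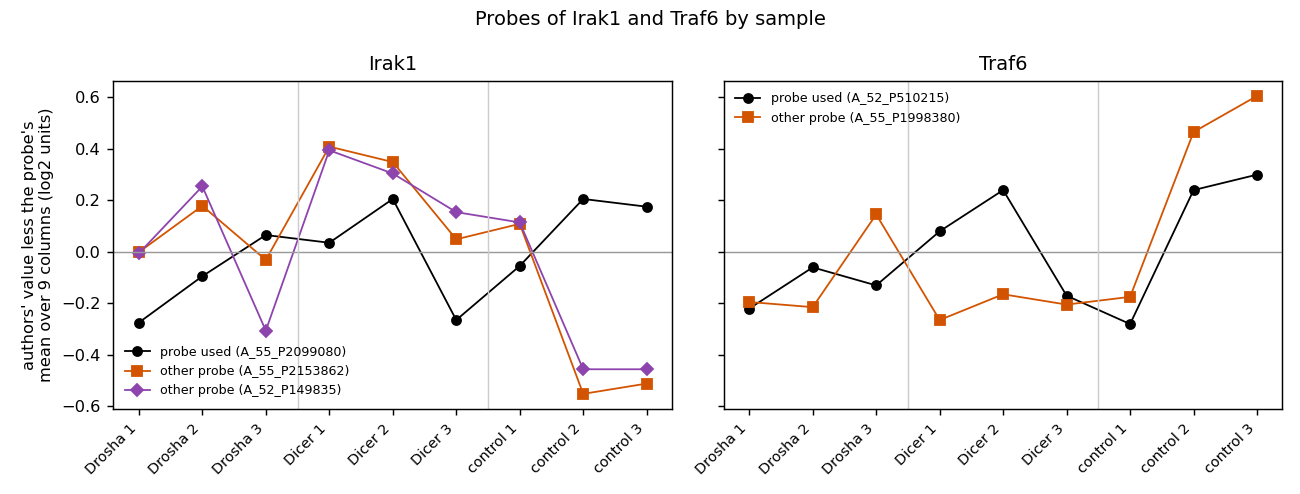
Authors' log2 value of each probe of Irak1 and Traf6, less that probe's mean over the 9 columns (vertical axis), by sample (horizontal axis, with vertical lines between the Drosha-deleted, Dicer-deleted and control samples). The 3 Irak1 probes part in control replicates 2 and 3, where the brightest is above its mean and the other 2 are below theirs; the 2 Traf6 probes are both above their means there.

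The targets did not move as a group across the 9 columns. As a description that shares array and normalisation, Pearson's r over the 9 columns was 0.83 between Traf6 and Irak1, 0.63 between Inpp5d and Tab2 and -0.84 between Cebpb and Tab2, and among the 5 miR-155 targets it ran between -0.84 and 0.63. By the same measure the tested genes most like each target were Gm15455 (0.961) and Man2b1 (0.96) for Inpp5d, Oas1b (0.957) and Trmt2b (0.941) for Bach1, Fabp5l2 (0.962) and Shtn1 (0.949) for Cebpb, and Myl6 (0.977) and Prkaa2 (0.975) for Jarid2. For Tab2 they were Pdik1l (0.977) and Tspan3 (0.971), for Traf6 Zfp286 (0.979) and Uchl5 (0.978), and for Irak1 Mboat2 (0.981) and Zfyve1 (0.975).

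**Figure D4:**
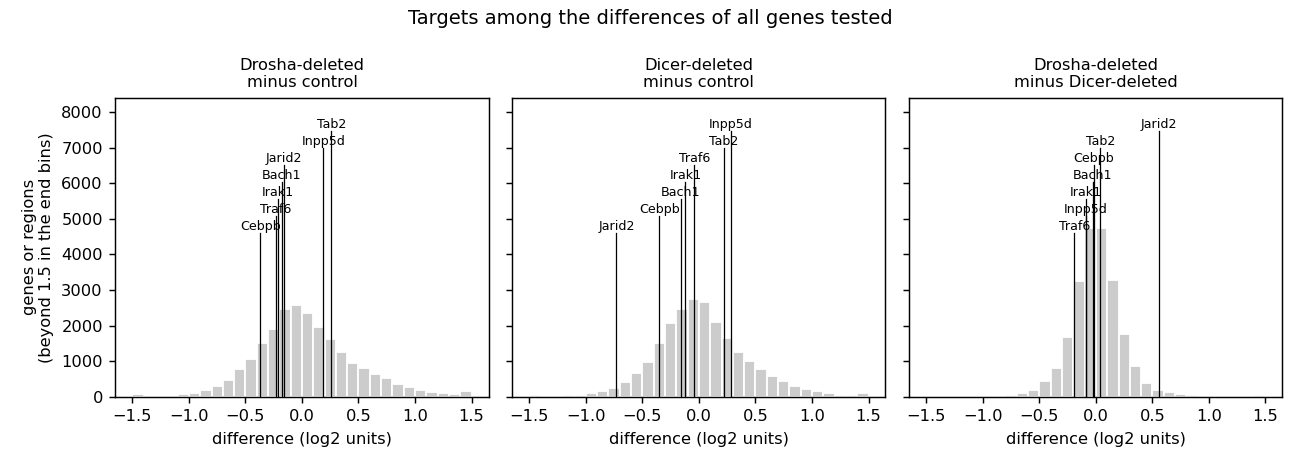
Number of genes or regions (vertical axis) by log2 difference (horizontal axis) in 3 comparisons, with a labelled line at each target's difference; values beyond 1.5 units are in the end bins. The targets lie within the bulk of all genes except Jarid2, at -0.73 in Dicer-deleted against control cells and at 0.56 in Drosha-deleted against Dicer-deleted cells.

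None of the other reported targets of the same microRNAs passed in any comparison, where 0.0174% to 0.169% of all genes did. Of 21 further miR-155 targets 20 were measured, 0 passed in limma's fit in any comparison, and their median difference from control was -0.05 in each deletion. At an unadjusted p under 0.05, 4 were lower with Drosha deleted and 5 with Dicer deleted and 0 were higher in either, out of 20 genes, where 26.9% and 21.9% of all genes differed from control in one direction or the other. Those with the smallest p were Maf, Fos and Hif1a, all transcription factors. Maf averaged 5.74 ± 0.16 in Drosha-deleted cells, 5.84 ± 0.23 in Dicer-deleted cells and 6.89 ± 0.42 in control cells (SD, n = 3 each, adjusted p = 0.0691 and 0.129 against control). All 3 control samples of Maf were above all 6 deletion samples, and 9.49% of all genes had control samples wholly above or wholly below the deletion samples. The deletion samples of Maf, at 5.57 to 6.10, lay below the median of all probes, which was 6.30 to 6.32. A probe was kept if well above background in 1 or more groups, so Maf may have been kept through its control samples alone.

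Of 9 further miR-146a targets, all measured, 0 passed and the median difference from control was -0.04 with Drosha deleted and -0.20 with Dicer deleted. At an unadjusted p under 0.05, 2 of the 9 were higher and 2 lower with Drosha deleted, where 26.9% of all genes differed, and 2 were higher and 1 lower with Dicer deleted, where 21.9% did. The higher ones were Card10 and Irak2 in each deletion, both signalling genes upstream of NF-kB, and the lower ones included the receptor Notch1 in each. Notch1 averaged 7.53 ± 0.36 in Drosha-deleted cells, 7.35 ± 0.28 in Dicer-deleted cells and 8.05 ± 0.03 in control cells (SD, n = 3 each, limma adjusted p = 0.15 and 0.163 against control). Card10 averaged 8.16 ± 0.07 in Drosha-deleted cells, 8.11 ± 0.17 in Dicer-deleted cells and 7.53 ± 0.30 in control cells (SD, n = 3 each, limma adjusted p = 0.103 and 0.163). Control replicate 1 of Card10, at 7.88, lay just below the lowest deletion sample, at 7.93. Control replicates 2 and 3 lay further below, at 7.41 and 7.32. Irak2, a relative of Irak1, averaged 13.10 ± 0.13, 12.99 ± 0.07 and 12.65 ± 0.24 in Drosha-deleted, Dicer-deleted and control cells. Control replicate 1 of Irak2, at 12.93, lay at the lower end of the deletion samples, and control replicates 2 and 3, at 12.50 and 12.51, lay below them.

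In the pathway around Traf6, Irak1 and Tab2, 1 of 26 Toll and interleukin-1 receptor signalling genes passed, Cd14, which fell in Drosha-deleted cells. Of all genes, 0.169% passed between Drosha-deleted and control cells. Cd14, the lipopolysaccharide co-receptor of monocytes, read 9.71, 9.57 and 9.18 in Drosha-deleted cells, 10.68, 10.35 and 10.35 in Dicer-deleted cells and 10.63, 10.83 and 10.77 in control cells (difference -1.26 in Drosha-deleted cells, limma adjusted p = 0.03). Of 14 monocyte and macrophage markers 2 passed and fell in Drosha-deleted cells, against the same 0.169%. They were Clec4d and Cd14, the latter being in both lists. The median difference of the 14 from control was -0.50 with Drosha deleted and -0.30 with Dicer deleted. At an unadjusted p under 0.05, 5 were lower and 1 higher with Drosha deleted, where 26.9% of all genes differed. With Dicer deleted 0 were lower and 1 higher, where 21.9% did. Their mean log2 value ran between 10.23 and 10.38 in Drosha-deleted samples, 10.08 and 10.99 in Dicer-deleted samples and 10.65 and 11.19 in control samples. In bulk RNA, fewer cells of a type and less RNA per cell cannot be told apart, and the part of these markers in the targets' levels was not tested. Among 17 NF-kB responsive genes 0 passed in any comparison, where 0.0174% to 0.169% of all genes did. The widest difference there was that of the surface molecule Cd83, at 9.24 ± 0.60 in Drosha-deleted, 7.35 ± 0.45 in Dicer-deleted and 8.72 ± 0.49 in control cells (SD, n = 3 each), with an adjusted p of 0.209 between the deletions.

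The genes that act beside the miR-155 targets gave 0 calls as well, in 20 PI3K and inositol phosphatase genes, 15 Bach1 partners and antioxidant genes, 6 C/EBP family genes and 10 PRC2 genes. Inppl1 (SHIP2), the relative of Inpp5d, averaged 10.30 ± 0.09 in Drosha-deleted cells, 10.81 ± 0.18 in Dicer-deleted cells and 10.83 ± 0.09 in control cells (limma adjusted p = 0.0916 between Drosha-deleted and control cells). Hmox1, the haem oxygenase that Bach1 represses, averaged 9.82 ± 0.44, 10.09 ± 0.40 and 10.67 ± 0.24 in Drosha-deleted, Dicer-deleted and control cells (adjusted p = 0.119 and 0.236 against control). Gclm, of the same list, went the other way, at 11.58 ± 0.16, 11.31 ± 0.17 and 10.92 ± 0.37 in that order of groups (adjusted p = 0.114 and 0.269). With Drosha deleted, 1 of the 15 was higher and 1 lower at an unadjusted p under 0.05, where 26.9% of all genes differed. Phf19, another PRC2 accessory subunit, averaged 10.06 ± 0.24, 10.17 ± 0.09 and 9.78 ± 0.05 in the same order of groups (adjusted p = 0.231 and 0.184). Among markers of other cell types, 0 of 12 neutrophil, 8 mast cell and basophil, 9 erythroid and megakaryocytic, 6 lymphoid and 7 dendritic genes passed, nor did any of 11 stem and progenitor genes. The low shares of all genes given above apply to these lists too.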

How the data were processed

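RNA of the 9 samples was hybridised to Agilent arrays of design 028005, read in 1 colour, with probe positions on mm9. The scanner files hold Cy3 intensity values, made per the file headers by version 10.7.3.1 of Agilent's Feature Extraction (GE1_107_Sep09). The authors' series values, used for all main results, are on a log2 scale with nearly equal quantiles in all columns and no centring of probes (medians 6.30 to 6.32). The submitters' processing notes name limma without a version. No source used here gives the authors' background step.

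Control spots, 3671 of the 62976 on an array, were dropped. Of 55681 probes, the 31485 that were well above background in all samples of 1 or more groups were kept, and the brightest kept probe stood for a gene, which left 23023 of 36315 genes or regions. The fit was made in limma 3.58.1 (R 4.3.3) over all genes tested, with 1 mean per group over 9 samples, moderated two-sided tests and Benjamini-Hochberg adjusted p-values (threshold 0.05); the script was tested on simulated data. An exact permutation test of 3 against 3 samples cannot go below p = 0.1. Precision is limited by the number of arrays.

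The 7 members, the lists and the tests were chosen with earlier results of these data known. The genes named are the members, Drosha and Dicer1, genes from the up to 3 of each list with the smallest p, Inppl1 and Clec4d among them, and the 2 tested genes most correlated with each member. Not all of these are described. Alternatives covered the scanner values (log2 less each array's 75th percentile, or normexp with offset 50 and quantile normalisation), the probe filter, the probes averaged, the slide or replicate number as a block, the groups in the fit, trended moderation and samples left out. Replicate numbers did not pair samples (r of deviations -0.26 to 0.23 for equal numbers, -0.29 to 0.27 for unequal ones).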

Additional observations from a re-analysis of the deposited data

How the results depend on the processing

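All differences here are log2, less the median of all genes. The scanner values moved that median by 0.28 with Drosha deleted and 0.29 with Dicer deleted against control, and by 0.19 in both with normexp. The number of genes passing between Drosha-deleted and control cells, 39 on the authors' values, was 13 on scanner values, 10 on these without control replicate 2, 1 with normexp, 25 with no filter, 13 with the slide as a block and 5 with only those groups in the fit. For Dicer-deleted against control cells, 4 became 0 with normexp, 2 with no filter, 0 with only those groups, 2 with trended moderation and 21 without control replicates 2 and 3. Between the deletions, 13 became 3 on scanner values, 8 on these without control replicate 2, 1 with normexp, 7 with the slide as a block and 20 with trended moderation. For the mean of both deletions, 30 became 7, 3 and 0 in the 3 scanner settings, 10 with no filter, 6 with the slide as a block and 9 with trended moderation. With the replicate block, whose numbers do not pair samples, the counts were 4, 0, 5 and 0 in that order of comparisons, and 0 members passed.

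Leaving out 1 sample at a time gave counts of 4 to 7747 for Drosha-deleted against control cells, 0 to 7029 for Dicer-deleted against control cells, 4 to 16 between the deletions and 3 to 8602 for the mean of both, with the highest counts without control replicate 1 in each. The number of members called ran from 0 to 2 for Dicer-deleted cells and for the mean of both against control, and was 0 throughout for Drosha-deleted against control cells and between the deletions. Without Drosha-deleted replicate 3, 60 genes passed between Drosha-deleted and control cells and 303 for the mean of both.

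Of the members' differences and levels, 28 under other settings and 14 under left-out samples changed sign. With normexp the difference from control was 0.01 for Bach1, 0.18 for Jarid2, -0.04 for Tab2 and 0.33 for Traf6 in Drosha-deleted cells, 0.05 for Bach1, -0.09 for Tab2 and 0.48 for Traf6 in Dicer-deleted cells, and 0.03 for Bach1, -0.06 for Tab2 and 0.41 for Traf6 in the mean of both. With scanner values it was 0.10 for Jarid2 in Drosha-deleted cells. For Traf6 and Irak1 it was then 0.15 and 0.13 in Dicer-deleted cells and 0.07 and 0.06 in the mean of both. On scanner values without control replicate 2 it was -0.02 for Inpp5d in Drosha-deleted cells. With control replicate 1 as the only control it was -0.16 for Inpp5d, 0.15 for Jarid2 and 0.13 for Traf6 in Drosha-deleted cells, -0.08 for Inpp5d, 0.31 for Traf6 and 0.04 for Irak1 in Dicer-deleted cells, and -0.12 for Inpp5d and 0.22 for Traf6 in the mean of both. Irak1 with probes averaged was at 0.14, 0.34 and 0.24 in these 3 comparisons, and Traf6 in Dicer-deleted cells was at 0.06 with the slide as a block.

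With 1 sample left out, the differences that changed sign lay close to 0: Bach1 between the deletions (-0.13 to 0.03), Cebpb (-0.27 to 0.14), Tab2 (-0.07 to 0.11) and Irak1 (-0.22 to 0.01) likewise, Jarid2 in Drosha-deleted cells (-0.31 to 0.00), and Traf6 (-0.21 to 0.07) and Irak1 (-0.22 to 0.01) in Dicer-deleted cells. The fit of only the compared groups has no counterpart for the mean of both deletions, which uses all 3 groups. The cause of these shifts was not tested. The 95% intervals given with the members show which sizes of shift these 9 arrays could not tell from 0.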

Other observations

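Probes that hold the miR-146 seed match were examined as a description. The 117 genes whose probe holds AGTTCTC had a median difference from control of 0.06 log2 units with Drosha deleted and 0.05 with Dicer deleted, with 0 passing in limma's fit. At an unadjusted p under 0.05, Drosha-deleted cells had 19 of them higher and 13 lower than control cells, and Dicer-deleted cells had 17 higher and 7 lower, where 26.9% and 21.9% of all genes differed from control. The 35 of these with the longer match AGTTCTCA, a subset chosen after the values were seen, had a median of 0.18 in each deletion against control and 0 between the deletions, with 0 passing and 23 of 35 above the median of all genes in each. The median for the 38 genes with AGCATTAA, the longer miR-155 match that Cebpb holds, was -0.12 with Drosha deleted and -0.05 with Dicer deleted, with 12 and 16 of 38 above the median of all genes. Control samples are shared by both comparisons, and a probe covers only 60 bases of a transcript.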
